A study of Arabidopsis thaliana with 8 samples.

Results

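Thylakoid light harvesting and photosystem genes were described here as the 36 nuclear loci of a fixed list, of 27826 loci on the arrays, and all 36 were measured. The list names genes by function, with no measured value in its rule, but it was chosen with earlier results of these data known. It holds 4 genes of the LHCA antenna of photosystem I, 10 of the LHCB antenna of photosystem II, 8 subunits of photosystem II (PSB), 11 subunits of photosystem I (PSA) and 3 electron carriers (PETE1, PETE2 and PETC). The samples were Arabidopsis thaliana rosette leaves on 8 Affymetrix arrays, 4 of Col-0 wild type and 4 from a mutant that the labels describe as having a depleted NAA50 steady-state level. The labels give the mutant line as animaa50 in the field for the ecotype and do not describe its construct, its number of transformants or whether leaves were pooled. Plants of both groups were 7 weeks old, had grown on soil in short days, and were sampled 2 h after light onset. Whether each array had its own plant is not given, and p-values therefore measure the spread between arrays, which may be technical. Arrays are numbered as in their titles.

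In the thylakoid membrane of the chloroplast, antenna proteins bind chlorophyll and pass absorbed light energy to the reaction centres of photosystem II and photosystem I. Photosystem II takes electrons from water, the cytochrome b6f complex and plastocyanin carry them on, and photosystem I passes them to ferredoxin. The core of both photosystems is encoded in the plastid, while the antenna and many peripheral subunits are encoded in the nucleus, made in the cytosol and imported, and their transcripts are among the most abundant of a green leaf. NAA50 is an acetyltransferase that modifies the first residue of proteins.

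The targeted gene was examined first. The log2 values of NAA50 (AT5G11340) were 4.71, 4.54, 4.23 and 4.75 in wild type and 10.43, 10.52, 10.24 and 10.33 on the arrays labelled depleted, a difference of 5.83 ± 0.14 (moderated SE, n = 4 arrays per group, adjusted p = 3.47e-09 in limma). The transcript was thus higher on the arrays labelled depleted, and if the label refers to the transcript in the part that was probed, the measurement went against it. Directions are given with wild type as the baseline. All values are log2 expression values, all differences are on the log2 scale with the moderated SE of limma over 4 arrays per group, and adjusted p-values come from the same fit over all 27826 loci with a threshold of 0.05.

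Most thylakoid genes lay slightly lower on the arrays labelled NAA50-depleted. Subunits of photosystem I gave 4 of the 9 that passed the test, and these were the dimmest 4 of the 11 listed. Of the 36 members 9 fell, 0 rose and 27 did not pass the threshold, and the median difference was -0.23. Members that fell were PSAN, LHCA1, PSAH2, PSAD2, LHCB4.1, LHCB6, PSBX, PSAD1 and PSBO2, by 0.39 to 1.21. PSAN, a lumenal subunit of photosystem I involved in docking plastocyanin, showed the largest fall, 2.31-fold, and PSAH2 followed at 1.5-fold. LHCA1, at 1.64-fold, was read near the array median, so its size is not ranked here. The remaining 6 fell by 1.31-fold to 1.45-fold. Among all loci 7.58% were called lower and 6.95% higher, against 25% and 0 of the members. Most of those loci were dim, with 17846 below a mean level of 4, where 3.08% were called lower. Shares by signal level, given below, are therefore the closer background. The difference was below 0 for 33 members (91.7%), above 0 for PSAK and PETE1 and 0 for LHCA4, while 55.1% of all loci lay below 0, and after cyclic loess normalization only 24 members lay below 0, with a median of -0.11. Wild type and labelled-depleted arrays did not overlap at 15 members, all lower, against 10.4% of all loci lower without overlap and 8.48% higher. These 2 shares are over all signal levels and were not taken at the levels of the members.

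**Figure D1:**
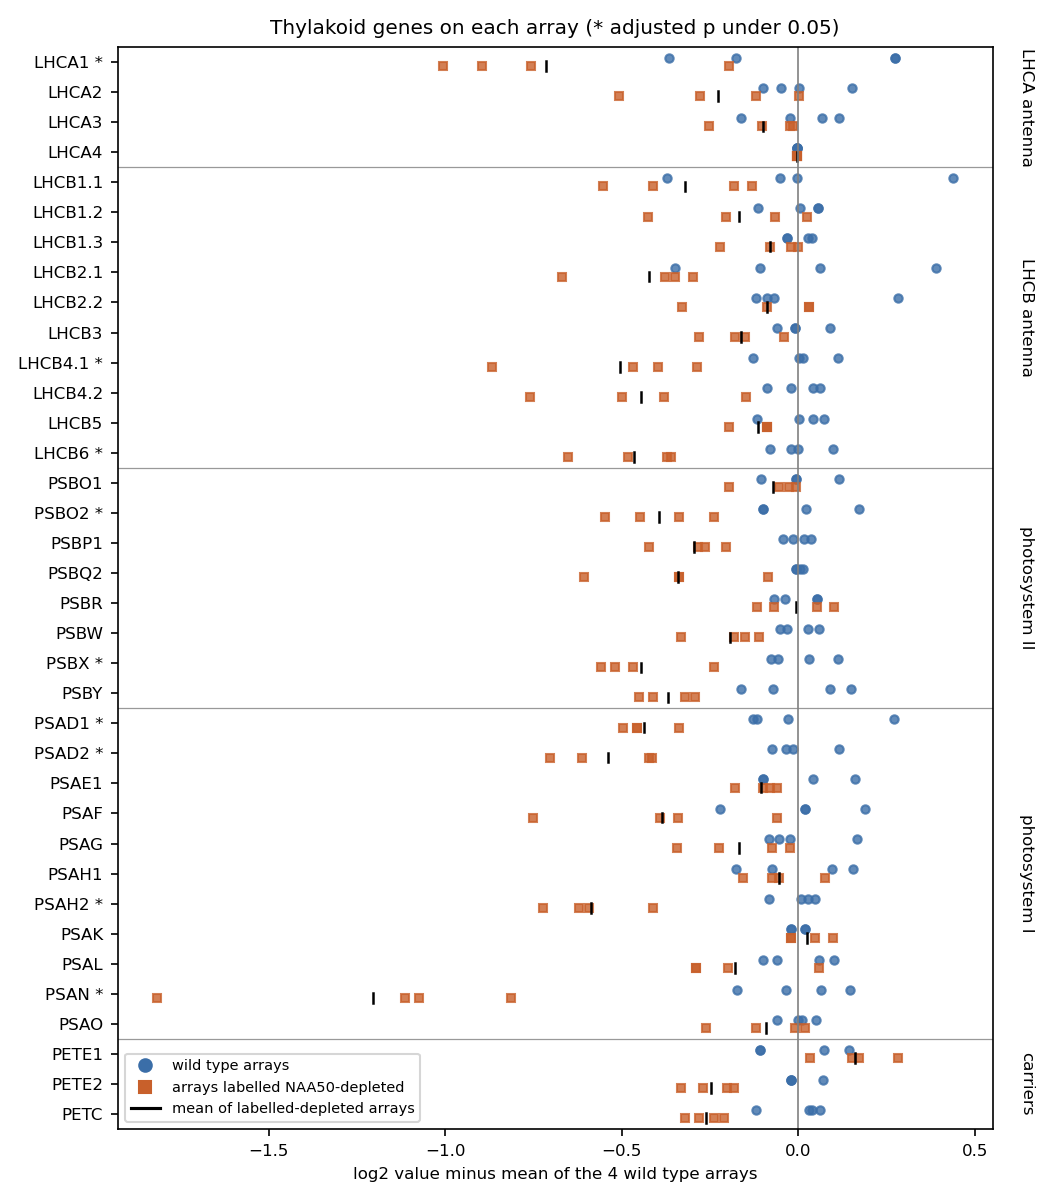
Log2 values of the 36 thylakoid genes on each of the 8 arrays, given as the value minus the mean of the 4 wild type arrays (circles: wild type, squares: labelled NAA50-depleted, vertical bar: mean of the labelled-depleted arrays). The squares of PSAN lie farthest to the left, LHCA4 has the same value on all arrays, and asterisks mark the 9 genes with an adjusted p under 0.05.

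The count of 9 depended on single arrays. It was 3 without labelled-depleted array 2 and 4 without wild type array 4. Omitting wild type array 2 or labelled-depleted array 1 or 3 gave 5, and omitting labelled-depleted array 4 gave 10. After cyclic loess normalization 4 members fell, and 8 fell when the 2 members with a mean level below 4 were left out. PSAN, PSAH2 and PSAD2 were called lower in each of the 8 fits without 1 array and under the 5 other settings that could change a call. Labelled-depleted array 2 held the lowest value of its group for 28 of 36 members, and wild type array 4 the highest of its group for 21. Among the loci with a mean level of 8 or above, these shares were 27.3% and 27.3%. The median member lay 0.34 below the wild type mean in labelled-depleted array 2, 0.23 below it in arrays 1 and 3 and 0.12 below it in array 4. Those medians are differences on the log2 scale, and all 4 arrays thus lay on the lower side.

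Signal level bears on these counts, since 30 of the 36 members had a mean log2 level of 8 or above, as only 703 of all loci did. The table was quantile-normalized: all 8 arrays held the same sorted values, so a locus that keeps its place in the order of an array receives an identical value there. LHCA4, an antenna protein of photosystem I, was in place 7 on every array and had a value of 12.92 on all 8. Of the 12 members with a mean level of 11 or above none was called, in bands where 2.86% (11 to 12) and 0% (12 and above) of all loci were called lower. From 10 to 11 it was 1 of 10 members (LHCB6) against 15.4% of all loci, and from 8 to 10 it was 5 of 8 members against 22.1%. From 4 to 8 it was 2 of 4 members against 15.3%, and below 4 it was 1 of 2 (LHCA1) against 3.08%. Over all levels from 8 up, 6 of 30 members (20%) fell against 19.5% of all loci at those levels, and 0 rose against 11.8%. These pooled shares cannot be set against each other directly, since 560 of the 703 loci lay at 8 to 10 but only 8 of the 30 members did, so the bands are the closer background. The difference was below 0 for 4 of 6 members at 12 and above, against 50% of all loci there. At 11 to 12 it was 6 of 6 members against 57.1%, and at 10 to 11 it was 10 of 10 against 53.8%. At 8 to 10 it was 7 of 8 against 65.7%. At 4 to 8 it was 4 of 4 against 58.8%, and below 4 it was 2 of 2 against 52.9%. These bands were chosen after the values were seen.

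**Figure D2:**
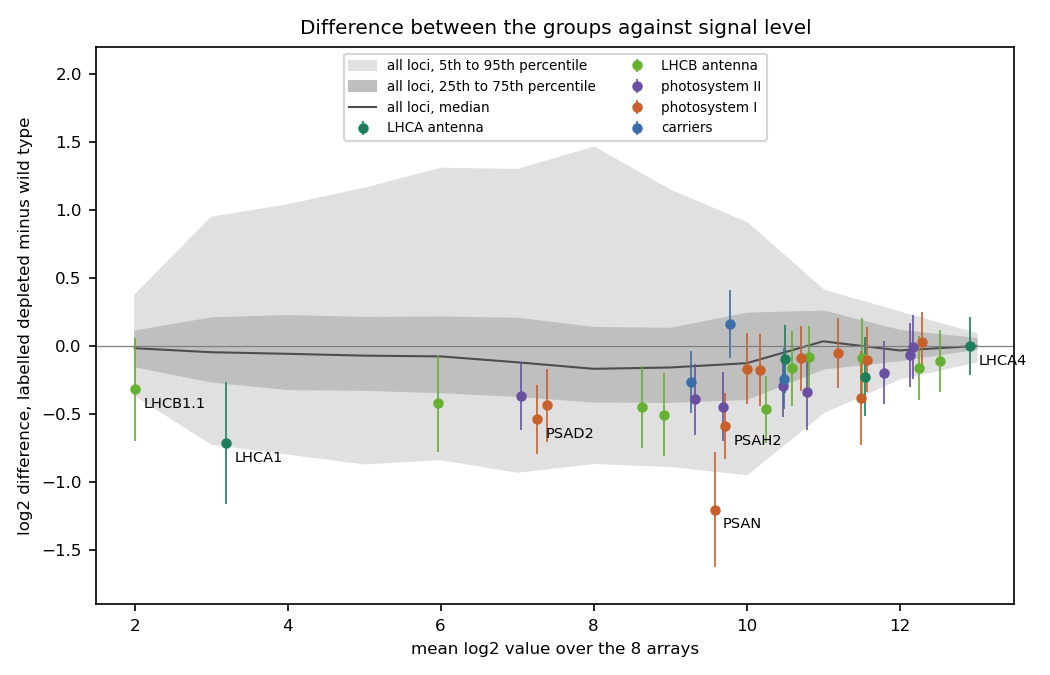
Log2 difference between the groups for each of the 36 thylakoid genes (points with 95% intervals, coloured by complex) against the mean log2 value over the 8 arrays. Grey bands and the dark line give the spread and median of all loci at that level, and they narrow above a level of 11, where no thylakoid gene passed the threshold. PSAN lies below the 5th percentile of the loci at its level.

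The LHCA proteins form the antenna belt of photosystem I. LHCA1 (AT3G54890) was the only one of the 4 that passed the threshold. Its values were 3.38, 3.19, 3.83 and 3.83 in wild type and 2.55, 2.80, 2.66 and 3.36 on the arrays labelled depleted, a difference of -0.72 ± 0.20 (adjusted p = 0.0361). The groups overlapped, since labelled-depleted array 4 lay above wild type array 2. The array median was 2.73, so this gene was read close to it, low for an abundant leaf transcript, and whether its probes measure it was not examined. When wild type array 3 or 4 or labelled-depleted array 1, 2 or 3 was left out, it missed the threshold at -0.70 to -0.62.

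LHCA2 (AT3G61470) had values of 11.61, 11.66, 11.56 and 11.81 in wild type and 11.38, 11.15, 11.54 and 11.66 on the arrays labelled depleted. The difference of -0.23 ± 0.13 (adjusted p = 0.329) was smaller than the spread of the labelled-depleted arrays, 11.15 to 11.66. LHCA3 (AT1G61520), with values of 10.38 to 10.66 in wild type and 10.29 to 10.53 on the other arrays, differed by -0.10 ± 0.11 and was at 0.028 after cyclic loess. For LHCA4 (AT3G47470) the difference was 0 with a 95% interval of -0.21 to 0.21, an interval that rests on the spread of other loci because its own was 0.

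The LHCB proteins are the antenna of photosystem II. LHCB1 and LHCB2 make up most of the mobile trimers, LHCB3 occurs in trimers next to the core, and LHCB4 (CP29), LHCB5 (CP26) and LHCB6 (CP24) are the monomeric antennae that link the trimers to the core. The genes that fell, 2 of 10, belonged to the monomeric antennae. LHCB4.1 lay at a mean level of 8 to 10, where 22.1% of all loci were called lower, and LHCB6 at 10 to 11 (15.4%). Of the trimer genes, LHCB1.2 and LHCB1.3 also lay at 10 to 11, and LHCB2.1 at 4 to 8 (15.3%). LHCB2.2 lay at 11 to 12 (2.86%), and LHCB3 and the monomeric LHCB5 at 12 and above (0%). Whether monomeric and trimeric antennae differed apart from signal level was not tested. LHCB6 (AT1G15820) had values of 10.41, 10.47, 10.49 and 10.59 in wild type and 10.01, 9.84, 10.13 and 10.12 on the arrays labelled depleted. All 4 labelled-depleted arrays lay below all wild type arrays, and the fall was 1.38-fold (-0.47 ± 0.11, adjusted p = 0.0163). Without labelled-depleted array 2 it was -0.41 and the call was lost, as it was after cyclic loess (-0.34).

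For LHCB4.1 (AT5G01530) the values were 9.19, 9.18, 9.05 and 9.29 in wild type and 8.78, 8.31, 8.71 and 8.89 on the arrays labelled depleted. It fell by 1.42-fold (-0.51 ± 0.14, adjusted p = 0.0325), again with no overlap. Labelled-depleted array 2 was the lowest at 8.31, and without it the difference was -0.38. Omitting wild type array 1, 2 or 4 or labelled-depleted array 3 also ended the call, at -0.52 to -0.47. After cyclic loess the call was lost as well (-0.38, adjusted p = 0.102 in limma). LHCB4.2 (AT3G08940), a second gene for CP29, had wild type values of 8.76, 8.83, 8.89 and 8.91 and labelled-depleted values of 8.47, 8.09, 8.35 and 8.70. Its groups did not overlap either, and its difference of -0.45 ± 0.14 narrowly missed the threshold (adjusted p = 0.0521). It passed without labelled-depleted array 4, at -0.55. In limma it also passed with a trended and robust variance (adjusted p = 0.0232), array weights (0.0372) and a filter on dim loci (0.0477). It did not pass after cyclic loess (-0.32, adjusted p = 0.163 in limma) or without any other single array. LHCB5 (AT4G10340), at 12.46 to 12.65 in wild type and 12.38 to 12.49 on the arrays labelled depleted, differed by -0.11 ± 0.10 (adjusted p = 0.580).

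None of the 6 LHCB1, LHCB2 and LHCB3 genes passed the threshold. LHCB1.1, LHCB1.2 and LHCB1.3 are direct neighbours on chromosome 1 in the RefSeq table of TAIR10.1. LHCB1.2 (AT1G29910) was at 10.56, 10.68, 10.73 and 10.73 in wild type and at 10.47, 10.25, 10.70 and 10.61 on the arrays labelled depleted, a difference of -0.17 ± 0.12 (adjusted p = 0.470). LHCB1.3 (AT1G29930) was at 10.82, 10.88, 10.82 and 10.89 and at 10.77, 10.63, 10.83 and 10.85, a difference of -0.08 ± 0.11 that lay at 0.041 after cyclic loess. Both sets of groups overlapped. LHCB1.1 (AT1G29920) was at 2.60, 2.11, 1.79 and 2.16 and 1.61, 1.98, 1.75 and 2.03. With a mean of 2.00 it lay below the array median, so its difference of -0.32 ± 0.17 (adjusted p = 0.285) cannot be read as that of a measured transcript, and whether the probes tell these 3 genes apart was not examined.

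LHCB2.1 (AT2G05100) had values of 6.07, 6.24, 5.83 and 6.57 in wild type and 5.80, 5.51, 5.83 and 5.88 on the arrays labelled depleted, and LHCB2.2 (AT2G05070), its neighbour on chromosome 2, had 11.47, 11.44, 11.49 and 11.84 and 11.59, 11.23, 11.47 and 11.59. Their differences were -0.42 ± 0.16 (adjusted p = 0.117) and -0.09 ± 0.13 (adjusted p = 0.757). In LHCB2.1 wild type array 3 and labelled-depleted arrays 1, 3 and 4 lay close together at 5.80 to 5.88, so the groups overlapped. Wild type array 4 stood above the other wild type arrays in LHCB2.2, and without it the difference of LHCB2.2 was 0.0026. LHCB3 (AT5G54270), at 12.28 to 12.43 and 12.06 to 12.30, differed by -0.16 ± 0.11 (adjusted p = 0.396), with wild type array 2 and labelled-depleted array 3 in the range of both groups.

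Photosystem II subunits outside the antenna had the lowest median difference of the 5 groups, -0.32, although only 2 of 8 fell. These were PSBX and PSBO2, at a mean level of 8 to 10, where 22.1% of all loci were called lower. Of the others, PSBY lay at 4 to 8 (15.3%), and PSBP1 and PSBQ2 lay at 10 to 11 (15.4%). PSBW lay at 11 to 12 (2.86%), and PSBO1 and PSBR at 12 and above (0%). PSBO, PSBP and PSBQ are the extrinsic lumenal proteins that hold and protect the manganese cluster where water is split. PSBR is a small subunit that helps attach them, and PSBW, PSBX and PSBY are small membrane-spanning subunits. At 6 of the 8 genes the groups did not overlap, all lower, against 10.4% of all loci, a share over all signal levels. PSBX (AT2G06520) had wild type values of 9.86, 9.95, 9.84 and 10.03 and labelled-depleted values of 9.40, 9.36, 9.45 and 9.68. It fell by 1.36-fold (-0.45 ± 0.12, adjusted p = 0.0230), and omitting wild type array 2 or 4 or labelled-depleted array 1, 2 or 3 ended the call, at -0.44 to -0.41. PSBO2 (AT3G50820) had values of 9.42, 9.69, 9.42 and 9.54 and 9.18, 8.97, 9.07 and 9.28, and it fell by 1.31-fold (-0.39 ± 0.12, adjusted p = 0.0489). Leaving out any array other than labelled-depleted array 4 lost this call, at -0.43 to -0.34.

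Of the extrinsic proteins that did not pass, PSBO1 (AT5G66570) was at 12.16, 12.06, 12.16 and 12.28 in wild type and 12.16, 11.97, 12.14 and 12.11 on the arrays labelled depleted, with overlapping groups and a difference of -0.07 ± 0.11 (adjusted p = 0.769). PSBP1 (AT1G06680) was at 10.58, 10.64, 10.61 and 10.66 and 10.34, 10.20, 10.36 and 10.42. Its groups were apart and its difference was -0.30 ± 0.10 (adjusted p = 0.0897). PSBQ2 (AT4G05180) was at 10.96, 10.97, 10.96 and 10.98 and 10.63, 10.36, 10.63 and 10.88. The wild type arrays of PSBQ2 lay between 10.96 and 10.98, while labelled-depleted array 2 lay at 10.36 and array 4 at 10.88. Its difference was -0.34 ± 0.13 (adjusted p = 0.102), and it passed without labelled-depleted array 4, at -0.43.

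The small subunit gene PSBY (AT1G67740), at 7.38, 7.16, 7.07 and 7.32 and 6.82, 6.78, 6.94 and 6.91, differed by -0.37 ± 0.11 with no overlap (adjusted p = 0.0525). Leaving out wild type array 3 brought PSBY past the threshold, at -0.42. PSBW (AT2G30570), at 11.86, 11.92, 11.84 and 11.95 and 11.78, 11.56, 11.71 and 11.74, differed by -0.20 ± 0.11 with no overlap (adjusted p = 0.279). PSBR (AT1G79040) ran from 12.11 to 12.23 in wild type and from 12.06 to 12.28 on the other arrays. Its difference of -0.01 had a 95% interval of -0.24 to 0.23, and its sign turned without wild type array 3 or 4 (0.0091 each) and without labelled-depleted array 2 (0.012) or 4 (0.028).

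Photosystem I subunits gave 4 of the 9 genes that fell, PSAN, PSAH2, PSAD2 and PSAD1, although the median of the 11 was only -0.18. PSAD1 and PSAD2 lay at a mean level of 4 to 8, where 15.3% of all loci were called lower. PSAN and PSAH2 lay at 8 to 10 (22.1%). The other 7 lay at 10 or above, with shares of 15.4% (10 to 11), 2.86% (11 to 12) and 0% (12 and above). Whether photosystem I subunits differed from the other groups apart from signal level was not tested. PSAD and PSAE sit on the stromal side where ferredoxin docks, PSAF and PSAN take part in plastocyanin docking on the lumenal side, PSAG and PSAK lie on the side of the antenna belt, and PSAH, PSAL and PSAO lie where LHCB trimers attach during state transitions. PSAN (AT5G64040) had values of 10.25, 10.33, 10.01 and 10.15 in wild type and 9.07, 8.37, 9.11 and 9.37 on the arrays labelled depleted. The highest labelled-depleted array, at 9.37, lay below the lowest wild type array, at 10.01, and labelled-depleted array 2 was the lowest of all. The difference was -1.21 ± 0.19 or 2.31-fold lower (95% interval -1.63 to -0.78, adjusted p = 0.00148), and it ranged from -1.34 to -1.0 when single arrays were left out.

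PSAH2 (AT1G52230) was at 10.06, 10.04, 9.93 and 10.02 in wild type and 9.29, 9.42, 9.39 and 9.60 on the arrays labelled depleted. No group overlap was seen, and the fall was 1.5-fold (-0.59 ± 0.11, adjusted p = 0.00401). PSAD2 (AT1G03130) was at 7.52, 7.65, 7.50 and 7.46 and 6.92, 6.83, 7.12 and 7.11, a fall of 1.45-fold (-0.54 ± 0.11, adjusted p = 0.00841). PSAD1 (AT4G02770) was at 7.49, 7.58, 7.48 and 7.88 and 7.15, 7.11, 7.27 and 7.15, a fall of 1.35-fold (-0.44 ± 0.12, adjusted p = 0.0339). Both PSAD genes thus fell by a like amount with no overlap, but PSAD1 missed the threshold when wild type array 2 or 4 or labelled-depleted array 1, 2 or 4 was omitted, at -0.45 to -0.35.

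The 7 other photosystem I subunits did not pass the threshold. PSAF (AT1G31330) was at 11.71, 11.71, 11.47 and 11.88 in wild type and 11.30, 10.94, 11.35 and 11.63 on the arrays labelled depleted, a difference of -0.38 ± 0.16 (adjusted p = 0.141), with labelled-depleted array 4 inside the wild type range. PSAH1 (AT3G16140) was at 11.32, 11.05, 11.15 and 11.38 and 11.15, 11.07, 11.17 and 11.30, with largely overlapping groups and a difference of -0.05 ± 0.12 (adjusted p = 0.847). PSAL (AT4G12800) differed by -0.18 ± 0.12, PSAG (AT1G55670) by -0.17 ± 0.12, PSAE1 (AT4G28750) by -0.10 ± 0.11 and PSAO (AT1G08380) by -0.09 ± 0.11. In all 4 the groups overlapped and the adjusted p was 0.414 or more. PSAK (AT1G30380), at 12.30, 12.26, 12.26 and 12.30 and 12.33, 12.26, 12.26 and 12.38, differed by 0.03 ± 0.10 (95% interval -0.19 to 0.25).

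None of the 3 electron carriers passed the threshold. Plastocyanin, the copper protein that carries electrons to photosystem I, is encoded by PETE1 and PETE2. PETE2 (AT1G20340) was at 10.59, 10.59, 10.59 and 10.68 in wild type and 10.41, 10.28, 10.43 and 10.34 on the arrays labelled depleted, a difference of -0.24 ± 0.10 (adjusted p = 0.155) with no overlap. PETE1 (AT1G76100) was at 9.85, 9.60, 9.60 and 9.78 and 9.88, 9.74, 9.86 and 9.99, a difference of 0.16 ± 0.11 (adjusted p = 0.438) with overlapping groups. PETC (AT4G03280), the Rieske protein of the cytochrome b6f complex, was at 9.45, 9.44, 9.29 and 9.47 and 9.17, 9.09, 9.13 and 9.20, a difference of -0.26 ± 0.10 (adjusted p = 0.128) with no overlap.

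Several of these proteins are encoded by more than 1 gene, and the log2 ratio of close paralogs was compared between the groups for 9 pairs. A ratio within an array shows unequal change and not which gene is stable. PSAH1 over PSAH2 was at 1.26, 1.02, 1.22 and 1.36 in wild type and at 1.87, 1.65, 1.78 and 1.71 on the arrays labelled depleted. The ratio was higher by 0.54 ± 0.09 (SE, n = 4 arrays per group), and its groups did not overlap. PETE1 over PETE2 was at -0.74, -0.98, -0.99 and -0.90 in wild type and at -0.53, -0.54, -0.57 and -0.36 on the other arrays, higher by 0.40 ± 0.08 with no overlap. PSBO1 over PSBO2 was at 2.74, 2.38, 2.74 and 2.73 and at 2.98, 3.01, 3.07 and 2.83, higher by 0.32 ± 0.10 with no overlap.

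For these 3 pairs the two-sided exact permutation p was 0.0286, the smallest that 70 assignments of the arrays allow, and 0.0857 after Benjamini-Hochberg adjustment over the 9 pairs. None of the 9 passed 0.05 after adjustment, which would have needed 6 pairs at the smallest p. PSAH2 and PSBO2 passed the gene test while PSAH1, PSBO1 and both PETE genes did not, and the mean log2 levels of PSAH1 and PSBO1, 11.2 and 12.1, lie where few loci were called. The part of the compressed scale in these ratios was not tested. LHCB2.1 over LHCB2.2 differed by -0.33 ± 0.11 and did not pass (exact permutation p = 0.0571, adjusted p = 0.129). The mean levels of LHCB2.1 and LHCB2.2 were 5.97 and 11.5, and whether the probes tell these genes apart was not examined. Of the remaining pairs, LHCB4.1 over LHCB4.2 differed by -0.06 ± 0.07 and PSAD1 over PSAD2 by 0.10 ± 0.13, so a difference was not detectable. LHCB1.2 over LHCB1.3 differed by -0.08 ± 0.06 (exact permutation p = 0.257, adjusted p = 0.429). The 2 pairs with LHCB1.1 counted in the adjustment, but with that gene below the array median their ratios are not read. Without them, a choice made after seeing the data, the lowest adjusted p over the 7 pairs was 0.0667 (exact permutation test).

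**Figure D3:**
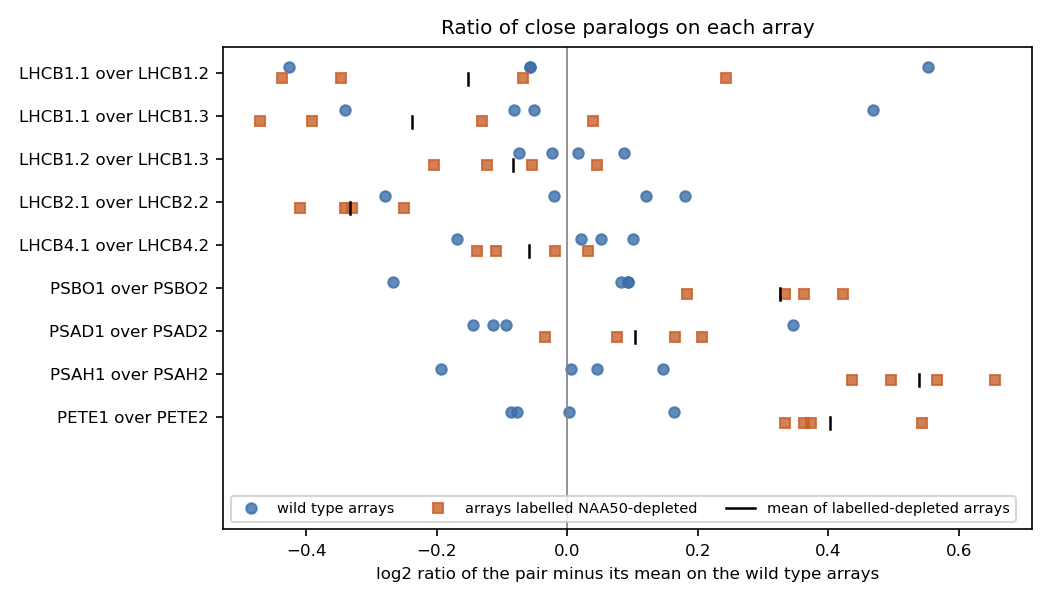
Log2 ratio of 9 pairs of close paralogs on each array, minus the mean ratio of the 4 wild type arrays (circles: wild type, squares: labelled NAA50-depleted, vertical bar: mean of the labelled-depleted arrays). The squares lie to the right of all circles for PSBO1 over PSBO2, PSAH1 over PSAH2 and PETE1 over PETE2, and overlap the circles in the other 6 pairs.

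A second list of 50 nuclear genes, also chosen with earlier results known, held further paralogs, subunits, carriers and helper proteins of the thylakoid. Of these 20 fell (40%), 0 rose and 30 did not pass, with a median difference of -0.28, and their levels were mostly lower, with a median of 7.45 against 10.5 for the 36 members. Loci with a level of 4 to 8, where 23 of the 50 lay, were called lower in 15.3% of cases, and 11 of these 23 fell. At 8 to 10 it was 8 of 18 against 22.1%. Those shares of all loci are also the background for the counts by subgroup below, which are small and were not tested. After cyclic loess, adjusted p-values of LHCA6, LHCB4.3, PNSL1, ATPC1 and PSB27 rose above the threshold, and the other 15 genes were still called.

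Further antenna paralogs fell in 3 of 7 cases. LHCB2.3 (AT3G27690) fell by 1.74-fold, from 7.13, 6.97, 6.88 and 7.12 in wild type to 6.38, 5.89, 6.18 and 6.45 on the arrays labelled depleted (-0.80 ± 0.14, adjusted p = 0.00278). LHCB4.3 fell by 0.52 ± 0.14 and LHCA6, a linker of photosystem I to the chloroplast NADH dehydrogenase-like complex, fell by 0.41 ± 0.11. LHCB4.3 was dim, at a mean of 3.78, and of all loci below 4 only 3.08% were called lower. LHCB1.4 and LHCB1.5 differed by -0.08 ± 0.13 and 0.09 ± 0.11 and did not pass. LHCB4.3 missed the threshold when wild type array 1 or 2 or labelled-depleted array 2, 3 or 4 was omitted (-0.53 to -0.41). With a trended and robust variance it narrowly missed it as well (adjusted p = 0.0503 in limma). LHCA6 missed it when any array but labelled-depleted array 1 was omitted (-0.43 to -0.36).

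Further photosystem subunits fell in 3 of 5 cases. PSBP2 fell by 0.80 ± 0.17, PSBQ1, the paralog of PSBQ2, by 0.55 ± 0.13 and PNSL1, a lumenal subunit of the NADH dehydrogenase-like complex, by 0.45 ± 0.11. PSAE2, the paralog of PSAE1, differed by -0.09 ± 0.10, close to the -0.10 of PSAE1, and neither passed.

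Carriers and ATP synthase subunits fell in 4 of 8 cases and included falls larger than that of PSAN in log2 difference. FD2 (AT1G60950), the main leaf ferredoxin that receives electrons from photosystem I, was at 10.68, 10.58, 10.11 and 10.21 in wild type and 9.0, 8.78, 9.01 and 9.43 on the arrays labelled depleted, a 2.53-fold fall (-1.34 ± 0.17, adjusted p = 0.000374). Its minor paralog FD1 differed by -0.23 ± 0.17 and did not pass. AT2G26500, which has no symbol in the RefSeq table, fell by 1.33 ± 0.17. The ATP synthase subunits ATPD and ATPC1 fell by 0.88 ± 0.15 and 0.46 ± 0.11, and ATPC1 lost its call without wild type array 4 or labelled-depleted array 2 (both -0.42). FNR1 and FNR2, which pass electrons from ferredoxin to NADP, differed by -0.15 ± 0.11 and -0.18 ± 0.11 and did not pass.

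Photoprotection and state transition genes fell in 3 of 12 cases (25%), not far from the 15.3% of all loci at 4 to 8 and 22.1% at 8 to 10. ZEP, the zeaxanthin epoxidase of the xanthophyll cycle, fell by 0.86 ± 0.13, PGR5, a factor of cyclic electron flow, by 0.55 ± 0.12, and PSBS, the sensor of lumen acidity in non-photochemical quenching, by 0.49 ± 0.11. The state transition kinase STN7 differed by -0.24 ± 0.13 and the phosphatase TAP38 by 0.04 ± 0.11, and neither passed.

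Of the 4 CURT1 genes, whose proteins bend the membrane at grana margins, 3 fell. CURT1D fell by 1.27 ± 0.17, CURT1A by 0.64 ± 0.11 and CURT1C by 0.50 ± 0.10, while CURT1B, the brightest at a mean of 11.4, differed by -0.21 ± 0.12. CURT1C (AT1G52220) is the direct neighbour of PSAH2 (AT1G52230) on chromosome 1 in the RefSeq table, and both fell by a like amount. Genes of assembly and membrane insertion fell in 4 of 14 cases (28.6%), against 15.3% of all loci at 4 to 8 and 22.1% at 8 to 10. LTD and cpSRP43, which guide LHC proteins through the stroma to the thylakoid, fell by 0.57 ± 0.13 and 0.46 ± 0.11, CEST by 0.53 ± 0.12 and PSB27, a photosystem II assembly factor, by 0.41 ± 0.11. The insertase ALB3 differed by -0.14 ± 0.11 and did not pass. PSB27 missed the threshold when wild type array 1, 2 or 4 or labelled-depleted array 1, 2 or 3 was omitted, at -0.42 to -0.35.

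**Figure D4:**
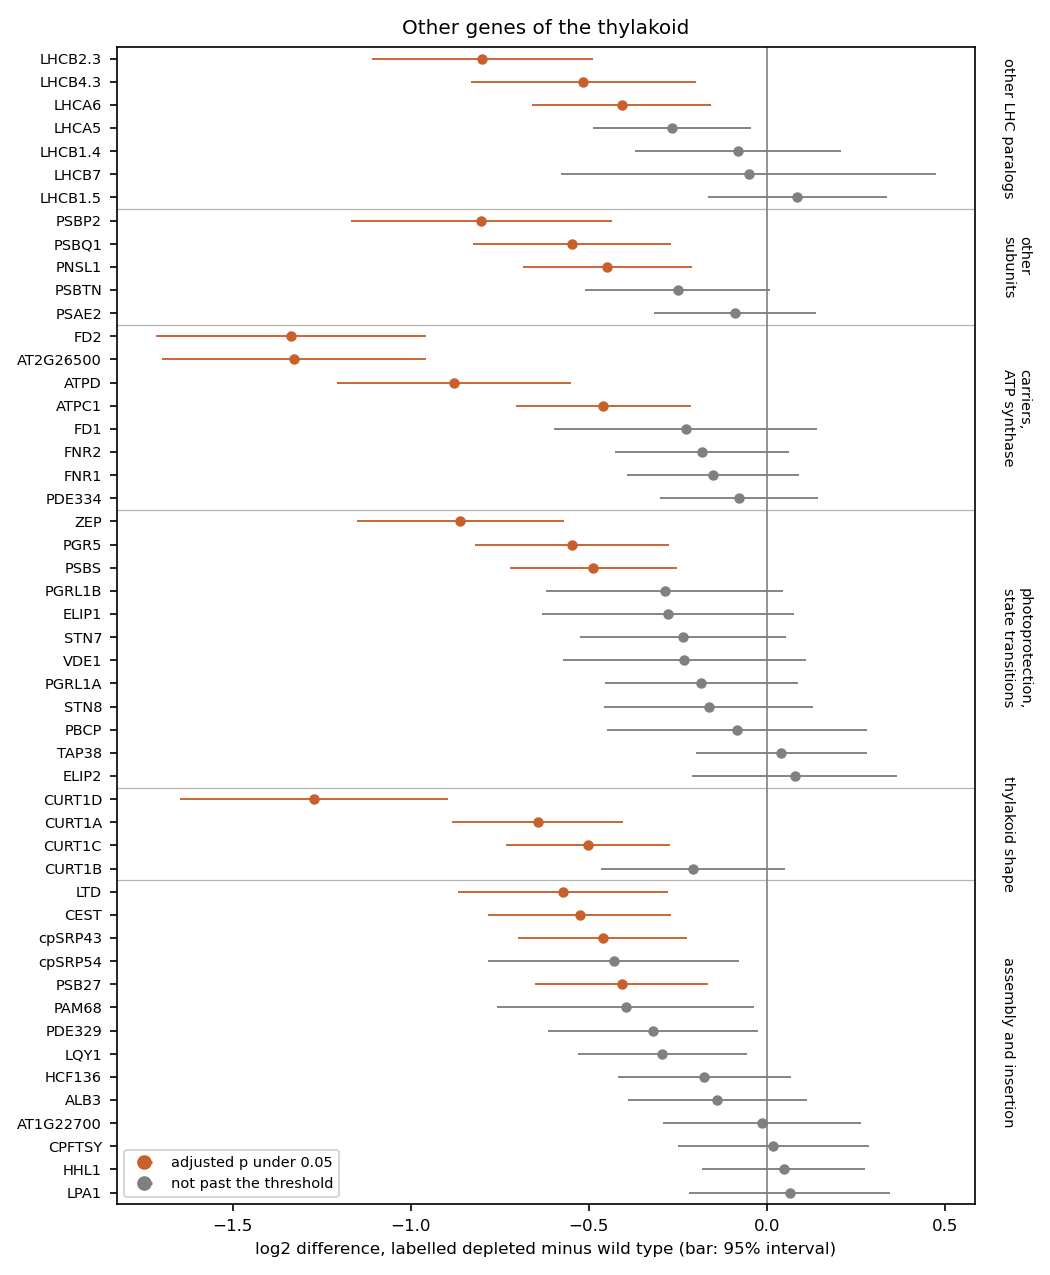
Log2 difference between the groups, with 95% intervals, for 50 further nuclear genes of the thylakoid in 6 groups (orange: adjusted p under 0.05, grey: not past the threshold). FD2, AT2G26500 and CURT1D lie farthest to the left, and no gene lies significantly above 0.

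Markers of leaf cell types were read on the same arrays, where 7.58% of all loci were called lower and 6.95% higher. At a level of 4 to 8 these shares were 15.3% and 13.1%. Of 6 mesophyll genes outside photosynthetic membranes, 0 passed the threshold, the median difference was -0.04, and their summed linear signal per array was 17788 to 19205 in wild type and 17834 to 18474 on the arrays labelled depleted. RBCS1A, in places 4 to 6 of every array where the quantile-normalized scale leaves little room, gave 53.6% to 57.7% of that sum. Without it the sums were 7927 to 8907 and 7536 to 8176, and GLDP1 differed by -0.38 with no overlap (adjusted p = 0.0719). CA1, SHM1 and RCA, at means of 10.9 to 11.5, lay where 15.4% (10 to 11) or 2.86% (11 to 12) of all loci were called lower. GOX1 was dim, at a mean of 3.95, so the lack of calls in this list is of limited weight. Of 7 epidermal genes 2 fell and 1 rose, with a median of -0.22, and their sum was 2547 to 2966 in wild type and 1745 to 2089 on the other arrays, without overlap. That sum does not describe the whole list, since CER1 (-1.89) and LTP1 (-0.84) fell, CER3 rose by 0.75, and ATML1 (-0.22), CER6 (-0.25), FDH (-0.04) and PDF1 (0.04) did not pass. Guard cell genes fell in 2 of 6 cases (median -0.40, sums of 208 to 290 and 177 to 265). The brightest of them, AT1G22690, differed by 0.24, did not pass and gave 46.5% to 68.0% of those sums. Without AT1G22690 the guard cell sums were 102 to 154 in wild type and 79.1 to 92.0 on the other arrays, without overlap. Of the genes left, KAT1 (-0.92) and SLAC1 (-0.60) fell, while MYB60 (-0.45), FAMA (-0.35) and HT1 (0.06) did not pass. With the brightest gene also left out of the other lists, epidermal sums were apart (1360 to 1484 and 1103 to 1311). Vascular sums then overlapped (116 to 196 and 121 to 167). Vascular genes rose in 1 of 8 cases (median 0.04, sums of 163 to 265 and 182 to 260.0). The 3 root genes lay at means of 1.42 to 1.61 and below the array median. In whole leaves fewer cells of a type and less RNA per cell cannot be told apart, and the part of cell composition in the thylakoid values was not tested.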

How the data were processed

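RNA of 8 samples was measured on Affymetrix arrays, and the sample titles gave groups and replicate numbers. The authors deposited 1 RMA value per locus and array (tool named per the submitters' processing notes). These deposited values ran from 0.69 to 13.7 and were read as log2, the usual RMA scale. For the RMA version, chip definition and genome build the sources used here give nothing, and no coordinates are printed. Scan dates were not used here, and a batch and the groups cannot be told apart where they coincide. Pearson correlations across loci were 0.979 to 0.988 within and 0.951 to 0.967 between groups. The number of arrays limits the precision.

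Loci were matched by identifier to the RefSeq gene table of TAIR10.1, which held 27241 of 27826 loci and all 36 members. limma 3.58.1 in R 4.3.3 was fitted to all loci with group as the sole covariate (lmFit, eBayes, no filter). Tests were two-sided, with Benjamini-Hochberg adjustment over all loci and a threshold of 0.05. The fit was also run on simulated data. These had independent noise and no quantile normalization, so they do not bear on the compressed bright end. Paralog ratios were compared with a two-sided exact permutation test over 70 assignments. The alternatives tried were cyclic loess, median centring, a replicate block, array weights, trended and robust variance, a dim-locus filter (over the 25th percentile on 4 or more arrays), each array left out, and an adjusted p of 0.01. All 36 members are named, and of the second list up to 3 increases and 3 decreases past the threshold in each subgroup, by size. PSB27, LHCB1.4, LHCB1.5, PSAE2, FD1, ATPC1, FNR1, FNR2, STN7, TAP38, CURT1B, ALB3, LHCB7 and the markers were named beside these after their values were seen. The members and lists were chosen with earlier results of these data known. No sequence is shown, as none was given.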

Additional observations from a re-analysis of the deposited data

Results flagged for a closer look

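A single array stood far from the other 3 of its group at 12 of 172 groups of 4 arrays examined over NAA50, the 36 members and the 50 genes of the second list (6.98%, groups with 1 value on all arrays left out), where chance gives about 1 in 20. LHCB2.2 was at 11.84 in wild type replicate 4 and at 11.44 to 11.49 in the others. LHCB5 was at 12.38 in labelled-depleted replicate 2 and at 12.49 in the others. PETE2 was at 10.68 in wild type replicate 4 and at 10.59 in the others. For LHCB5 and PETE2 the other 3 values were equal, so any distance counts as far. The 1 in 20 does not apply to such ties. PETC was at 9.29 in wild type replicate 3 and at 9.44 to 9.47 in the others. In wild type replicate 1, LHCA6 was at 9.20 against at most 9.02 and ZEP at 9.02 against 9.33 to 9.38. PSB27 was at 7.40 in labelled-depleted replicate 4 and at 7.23 to 7.26 in the others. In labelled-depleted replicate 2, LHCB1.5 was at 10.81 against 11.05 to 11.10, PSAE2 at 7.14 against 7.24 to 7.26 and FD1 at 9.11 against 8.54 to 8.63. LHCB7 was at 4.24 in labelled-depleted replicate 3 against 3.45 to 3.51, and ALB3 at 9.20 in wild type replicate 4 against 9.05 to 9.07.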

How the results depend on the processing

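The 9 members called lower became 7 with the replicate number as a block, 4 after cyclic loess, 13 with a trended and robust variance, 10 with array weights or a filter on dim loci, 3 at an adjusted p of 0.01 and 8 without the 2 dim members (chosen after seeing the data). Leaving out single arrays gave 3 to 10. By group, at an adjusted p of 0.01 the counts were 0 for LHCA, LHCB and PSB, while after cyclic loess they were 0 for LHCB and PSB. PSB was 1 with the replicate block and 5 with a trended and robust variance. Without single arrays the counts were 0 to 1 for LHCA, 0 to 3 for LHCB, 0 to 3 for PSB and 3 to 4 for PSA. At an adjusted p of 0.01 there were 1010 loci lower and 1228 higher in all, and 10 of the second list lower. No member was called higher in limma under any of these settings. Same-numbered arrays did not deviate together (correlations of -0.05 to 0.04, and 1 of 4 arrays correlated best with its own number), so the numbers were not taken as pairs. Under that block PSBO2 (adjusted p = 0.105), PSAD1 (0.0746), LHCA6 (0.0611) and PSB27 (0.0724) missed the threshold in limma.

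After cyclic loess, 9 uncalled members turned sign, LHCA3 to 0.028, LHCB1.3 to 0.041, LHCB2.2 to 0.030, LHCB5 to 0.00077, PSBO1 to 0.046, PSBR to 0.11, PSAE1 to 0.017, PSAH1 to 0.069 and PSAO to 0.032. With single arrays left out LHCB2.2 ran from -0.13 to 0.0026, PSBR from -0.044 to 0.028 and LHCB1.1 over LHCB1.2 from -0.30 to 0.030. The cause was not tested. Median centring left all 76 results at their value, as it must where arrays share their sorted values, and is not counted as support. Of 468 member differences under the other alternatives 410 kept direction and side of the threshold. None of the 9 paralog pairs passed after adjustment, and with the replicate block, tested by sign flips of 4 differences, the smallest possible exact p is 0.125. The ratios with LHCB1.1 are not readable as measured transcripts. The number of arrays and the compressed bright end limit what can be seen.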
